A study of Mus musculus with 12 samples.

Results

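Lymph nodes of tumour-free mice were compared with and without inhibition of the pain-sensing (nociceptive) nerves that reach the node. NT NDE mice had these nerves inhibited and NT NC mice did not. In both groups NT means that no B16F10 melanoma cells had been put into the tongue. The 6 libraries of the groups, 3 each, were taken by the group in their labels from a bulk RNA-seq series of 12 libraries and are described across all genes. The other 6 libraries, T NDE and T NC, came from mice given B16F10 cells in the tongue, with and without the same nerve inhibition, and serve here for the shared estimate of spread and for 1 comparison at the end. Per the labels, repetitions within a group are biologically independent. Whether a library holds 1 mouse or a pool is not stated. The mouse strain, sex and age, the agent or surgery that inhibited the nerves, the time since then and any sham treatment of NC mice are not stated in the labels used here. What separates the groups is therefore known only as inhibited against not inhibited.

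Nociceptive neurons have their cell bodies in sensory ganglia and send fibres into peripheral tissue, including the capsule and cortex of lymph nodes. The fibres release peptides such as CGRP and substance P, which immune and stromal cells sense through receptors that include the products of Calcrl with Ramp1 and of Tacr1. A lymph node is built of B cell follicles around follicular dendritic cells, which secrete the chemokine CXCL13, and of T cell zones on a mesh of fibroblastic reticular cells. Interferons, when sensed, switch on a large set of genes in most of these cells, and the level of those genes is a common readout of interferon exposure.

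CPM values are counts per 1000000 counts of the library, scaled by the TMM factors (0.978 to 1.01 in these libraries) unless called unscaled. Total counts ran from 18468699 to 19280229 in NT NDE and from 17590510 to 24029956 in NT NC, and 17301 of 55487 genes passed the filter on low counts. NT NC replicates 2 and 3 stood apart. Bpifa2, a secreted salivary gland protein, stood at 8.66, 6.66 and 12.6 CPM in NT NDE replicates 1 to 3, against 10.5, 997 and 19570 CPM in NT NC replicates 1 to 3 (unscaled). The salivary gland list summed to 61.3, 74.9 and 72.0 CPM in NT NDE, against 62.2, 1622 and 30440 CPM in NT NC. NT NC replicate 1 is thus the only library of its group without an excess of salivary transcripts. Fits were therefore made in 3 ways: on the 12 libraries, on the 12 libraries with the log2 CPM of Bpifa2 as a covariate, and without the 3 salivary libraries (NT NC replicates 2 and 3 and T NDE replicate 3). A log2 fold change written log2 FC a / b / c gives the 3 fits in that order, and its SE and p belong to the first. A list median written a / b / c gives the same 3 fits, and the counts of a list's members belong to the first unless another is named. A range after the median gives its lowest and highest value when 1 of the 6 tumour-free libraries is left out of the first fit. The covariate was 3.13, 2.76 and 3.67 in NT NDE replicates 1 to 3, against 3.41, 9.96 and 14.3 in NT NC replicates 1 to 3. It is thus partly confounded with the group, and its slope rests largely on the 3 salivary libraries. In the last fit NT NC is replicate 1 alone and is assumed to vary like the other groups. NT NDE replicate 3 held more red cell RNA than the others, with the haemoglobin gene Hbb-bs at 11, 11 and 68.1 CPM in NT NDE, against 15, 16.1 and 14.4 CPM in NT NC. B cell, T cell and high endothelial venule genes that define lymph node tissue were abundant in all 6 libraries, with the T cell receptor complex gene Cd3e at 104, 102 and 94.4 CPM in NT NDE, against 122, 98.8 and 103 CPM in NT NC. Transcripts of the nociceptors themselves cannot check the labels, since the cell bodies lie outside the node: Trpv1 had 9, 0 and 0 counts in NT NDE and 1, 0 and 1 in NT NC, and Scn10a had 0 counts in every library. In bulk RNA, fewer cells of a type and less RNA per cell cannot be told apart.

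No gene passed in edgeR's quasi-likelihood test between NT NDE and NT NC after Benjamini-Hochberg adjustment over 17301 genes (0% of them called), and none passed with Bpifa2 as a covariate (0%). The smallest adjusted p was 0.0788, shared by Socs3 and Slfn1, and with Bpifa2 it was 0.0878. The values below are therefore levels and fitted differences of genes that did not pass, unless another fit is named. At an unadjusted p under 0.05, 981 genes were higher in NT NDE (5.67% of those tested) and 815 lower (4.71%). With Bpifa2 the counts were 910 higher (5.26%) and 675 lower (3.9%), and 951 genes were under 0.05 with the same sign in both fits. All 3 NT NDE libraries lay above all 3 NT NC libraries for 1680 genes (9.71%) and below them for 1589 (9.18%). The median log2 fold change, NT NDE over NT NC, was 0.0048 over all genes, with the middle 50% between -0.11 and 0.12. With 3 libraries a side the smallest two-sided p of an exact permutation test is 0.1, so a call for a single gene rests on the spread shared across genes.

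Other fits of the same libraries did call genes. DESeq2 gave an adjusted p to 11580 genes and called 60 higher (0.518%) and 74 lower (0.639%), among them 4 genes of the salivary gland list. With edgeR on the 6 libraries alone, 15 of 16569 genes were higher (0.0905%) and 22 lower (0.133%), and 30 of these 37 calls were also DESeq2 calls. Without the 3 salivary libraries edgeR called 27 of 18185 genes higher (0.148%) and 6 lower (0.033%), of which 9 belonged to the cell cycle list and 1 was shared with the calls from the 6 libraries. Limma-voom called 0 genes. Leaving out 1 library at a time gave 0 to 7 calls in the edgeR fit, with 7 without T NC replicate 3 and 6 without T NDE replicate 1. With Bpifa2 as a covariate it gave 148 calls without NT NC replicate 1, 141 of them higher, 12 without T NDE replicate 3 and 0 to 4 without any other library.

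Among the higher genes, Socs3 led. It encodes a feedback inhibitor of cytokine receptor signalling through STAT3, and lies on mm10 chromosome 11, 117966079 to 117970047 (ENSMUSG00000053113). It had 133, 121 and 127 CPM in NT NDE, against 59.8, 84.9 and 77 CPM in NT NC. The lowest NT NDE library stood well above the highest NT NC library, and the log2 fold change was 0.78 (SE 0.11, edgeR adjusted p = 0.0788), 0.79 with Bpifa2 and 1.09 without the salivary libraries. That last fit called it (adjusted p = 5.44e-05), as did DESeq2 (adjusted p = 2.83e-07). Of the 8 tested genes of the SOCS family, Socs1, which restrains interferon signalling, was the other one under an unadjusted 0.05 (log2 FC 0.35 / 0.35 / 0.28), and the family's median was 0.0016 / 0.013 / -0.034.

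Bcl3, an atypical IkB protein that acts with NF-kB p50 and p52 in the nucleus (chromosome 7, 19808462 to 19822770), had 99.95, 97.4 and 97.6 CPM in NT NDE, against 60.8, 65.9 and 66 CPM in NT NC. The 3 values of each group lay within a few CPM of each other and the groups were far apart, giving a log2 FC of 0.61 / 0.62 / 0.70 (SE 0.11, edgeR adjusted p = 0.101) and, with the 6 libraries alone, an adjusted p of 0.00204. Cxcl13, the follicle chemokine of B cells (chromosome 5, 95956951 to 95961068), had 295, 277 and 265 CPM in NT NDE, against 158, 175 and 189 CPM in NT NC. Its log2 fold change was 0.68 (SE 0.12, edgeR adjusted p = 0.101), or 0.83 with Bpifa2, where it had the smallest p of any gene (adjusted p = 0.0878). The 6 libraries alone called it (adjusted p = 0.00218). Coch, a secreted product of follicular dendritic cells (chromosome 12, 51593341 to 51605771), had 15.4, 20.6 and 16.2 CPM in NT NDE, against 9.06, 10.6 and 7.73 CPM in NT NC, with no overlap between the groups and a log2 FC of 0.93 / 0.98 / 0.95 (SE 0.17).

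Dtx1, a modulator of Notch signalling that is abundant in marginal zone B cells (chromosome 5, 120680202 to 120711927), had 207, 192 and 167 CPM in NT NDE, against 129.7, 134 and 137 CPM in NT NC (log2 FC 0.50 / 0.41 / 0.54). Maf, a transcription factor of follicular helper and interleukin-17 T cells (chromosome 8, 115682942 to 115707794), had 139, 149.7 and 144 CPM in NT NDE, against 110.05, 109 and 121 CPM in NT NC (log2 FC 0.35 / 0.41 / 0.39). Il17f, an interleukin-17 family cytokine (chromosome 1, 20777146 to 20790617), was rare at 1.35, 1.88 and 1.84 CPM in NT NDE, against 0.169, 0.542 and 0.707 CPM in NT NC, with a log2 FC of 1.80 / 2.33 / 3.27 (SE 0.38). Its lowest library was NT NC replicate 1. The other higher genes of smallest p were Snx22 (log2 FC 0.70 / 0.68 / 0.50), the protease inhibitor gene Serpina10 (log2 FC 0.50 / 0.56 / 0.56), Rbm14 (log2 FC 0.38 / 0.40 / 0.43), the phosphatase gene Ptpn1, whose product acts on Janus kinases (log2 FC 0.28 / 0.30 / 0.31), Trir (log2 FC 0.30 / 0.26 / 0.28), the glutathione reductase gene Gsr (log2 FC 0.35 / 0.36 / 0.35), Ccnd3, the D-type cyclin of lymphocyte division (log2 FC 0.29 / 0.34 / 0.32), and the methionine sulfoxide reductase gene Msrb1 (log2 FC 0.44 / 0.46 / 0.35).

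On the lower side, Slfn1, a schlafen gene associated with restraint of T cell growth (chromosome 11, 83116849 to 83122670, ENSMUSG00000078763), had 68.1, 67.6 and 66.4 CPM in NT NDE, against 95.5, 111 and 99 CPM in NT NC. The NT NDE libraries lay within 2 CPM of each other and below every NT NC library, with a log2 FC of -0.60 / -0.51 / -0.50 (SE 0.086, edgeR adjusted p = 0.0788). Ms4a4b, a T cell membrane protein gene (chromosome 19, 11443553 to 11467055), had 282, 286 and 248 CPM in NT NDE, against 377, 354 and 343 CPM in NT NC (log2 FC -0.40 / -0.42 / -0.47). Bmf, a cell death activator of the BCL2 family (chromosome 2, 118528757 to 118549687), had 38.1, 39.3 and 39.8 CPM in NT NDE, against 60.2, 48 and 49.8 CPM in NT NC (log2 FC -0.43 / -0.46 / -0.62), and was called without the salivary libraries (adjusted p = 0.0293), as was Apol7e (log2 FC -0.52 / -0.58 / -0.65). The transcription factor gene Sp4 was at log2 FC -0.34 / -0.35 / -0.30, the Rac regulator gene Arhgap15 at log2 FC -0.33 / -0.31 / -0.24, the zinc finger genes Zfp518a at log2 FC -0.32 / -0.36 / -0.34 and Zc3h6 at log2 FC -0.69 / -0.68 / -0.65, Ipcef1 at log2 FC -0.30 / -0.32 / -0.28, the matrilin gene Matn2 at log2 FC -0.58 / -0.59 / -0.43 and Trim21, the cytosolic antibody receptor, at log2 FC -0.33 / -0.38 / -0.31. The remaining lower genes of smallest p, Ifi208, Gbp4, Gbp6 and Tgtp1, belong to interferon-inducible families, as does Slfn1 above. Of the 30 genes in this and the preceding paragraphs chosen by smallest p, DESeq2 called 29, the 6 libraries alone 14 and the fit without the salivary libraries 3. These fits use the libraries on which the genes were chosen, so their calls describe the genes and add no independent support.

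**Figure D1:**
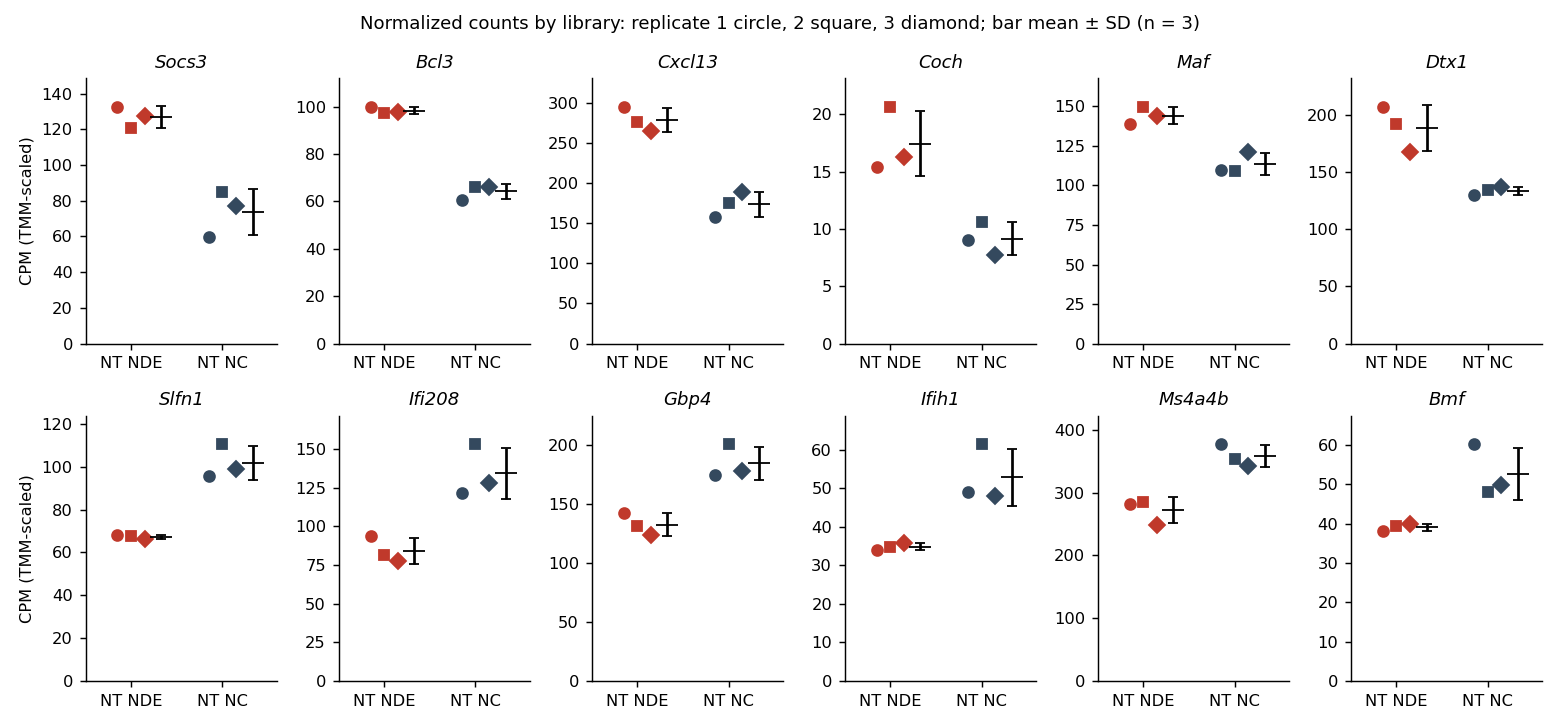
Normalized counts of 12 genes in each of the 6 tumour-free libraries, in CPM from 0, with NT NDE on the left and NT NC on the right, replicates 1 to 3 as circle, square and diamond, and the mean ± SD (n = 3) beside them. In every panel the 3 NT NDE values and the 3 NT NC values do not overlap, and no gene passed the edgeR test after adjustment. Most of these genes were chosen by smallest p, so the lack of overlap adds no support. Over all tested genes, 9.71% had no overlap with NT NDE higher and 9.18% with NT NDE lower.

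Antiviral effector genes of the interferon response were lower in NT NDE as a group. Of 32 tested genes of the IFIT, MX and ISG15 list 32 had a negative fold change, 21 were lower at an unadjusted p under 0.05 (background 4.71%) and 24 had all NT NDE libraries below all NT NC libraries (background 9.18%). The median log2 fold change was -0.56, against 0.0048 over all genes, and it ran from -1.55 to -0.046. None passed in the 12-library test, while DESeq2 called 5 lower (background 0.639%) and the 6 libraries alone 2 (background 0.133%). The list's mean log2(CPM + 0.5) was 5.46, 5.14 and 5.38 in NT NDE replicates 1 to 3, against 5.70, 6.28 and 5.88 in NT NC replicates 1 to 3. NT NC replicate 2 was the highest library and NT NC replicate 1 the nearest to NT NDE.

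The promoters of the 3 list genes of smallest p that have an entry in the promoter table are shown, because these genes were low together in NT NDE and each promoter holds the core of the interferon-stimulated response element, through which type I interferon acts on its target genes. Each is the 150 bases up to the RefSeq transcription start (GRCm38.p6, the assembly called mm10), 5′ to 3′ on the gene's own strand, and capitals mark GAAANNGAAA or its reverse complement TTTCNNTTTC.
Ifit1bl1, chr19:34601969-34602118, minus strand: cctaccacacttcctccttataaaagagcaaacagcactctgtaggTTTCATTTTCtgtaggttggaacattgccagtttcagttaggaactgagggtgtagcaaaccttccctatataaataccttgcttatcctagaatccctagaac
Ddx60, chr8:61927937-61928086, plus strand: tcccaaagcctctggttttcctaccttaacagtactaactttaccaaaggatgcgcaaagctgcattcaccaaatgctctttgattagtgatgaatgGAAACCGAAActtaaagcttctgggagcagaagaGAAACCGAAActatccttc
Ifit1, chr19:34640739-34640888, plus strand: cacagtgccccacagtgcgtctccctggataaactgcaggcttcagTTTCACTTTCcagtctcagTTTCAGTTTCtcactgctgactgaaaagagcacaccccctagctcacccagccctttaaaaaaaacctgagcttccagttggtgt
The motif began 104 bases before the start in Ifit1bl1, 53 and 19 bases before it in Ddx60, and 104 and 85 bases before it in Ifit1. The pair in Ifit1 comes from separate, neighbouring sites that do not overlap. In windows from 250 bases before to 50 after the start, searched on both strands, the motif was present in 1079 of 27025 genes with a promoter in the table (3.99%). It was present in 11 of 24 such genes of the IFIT, MX and ISG15 list (45.8%), 4 of 6 OAS genes (66.7%), all 10 guanylate-binding and immunity-related GTPase genes that had a promoter, 8 of 10 PYHIN genes (80.0%) and 3 of 7 schlafen genes (42.9%). Among tested genes with an unadjusted p under 0.05, 56 of 571 lower genes held it (9.81%) and 24 of 737 higher genes (3.26%), where 3.96% of all tested genes did. Outside the interferon and MHC lists it was in 31 of 536 lower genes (5.78%). A match describes these letters and is not evidence of binding.

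Ifit1bl1, an IFIT family gene (chromosome 19, 34592891 to 34601956), had 28.9, 21.7 and 26.2 CPM in NT NDE, against 42.4, 69.1 and 47.6 CPM in NT NC. Its log2 fold change was -1.05 (SE 0.22, edgeR adjusted p = 0.184), with NT NC replicate 2 the highest. Ddx60, a helicase that assists the RNA sensor RIG-I (chromosome 8, 61928087 to 62038244), had 49.1, 41 and 52.8 CPM in NT NDE, against 61.9, 82.7 and 64.7 CPM in NT NC (log2 FC -0.55 / -0.41 / -0.38, SE 0.14). Parp9, which works with the ubiquitin ligase DTX3L on interferon-response genes (chromosome 16, 35938470 to 35972605), had 95.8, 84.1 and 93.2 CPM in NT NDE, against 104, 138 and 119 CPM in NT NC (log2 FC -0.41 / -0.38 / -0.19). Mx1, a GTPase that traps viral ribonucleoproteins, had 51, 45.4 and 44.5 CPM in NT NDE, against 74.6, 106 and 88.2 CPM in NT NC (log2 FC -0.93 / -0.82 / -0.67). Ifit1, which binds the ends of foreign RNA, had 18.3, 14.1 and 17.8 CPM in NT NDE, against 33.1, 53.3 and 47.5 CPM in NT NC (log2 FC -1.42 / -1.20 / -0.98, SE 0.40). In all 5 genes the groups did not overlap. Isg15, the ubiquitin-like modifier that names the response, had 19.7, 16.5 and 17.2 CPM in NT NDE, against 24.3, 36.6 and 26.9 CPM in NT NC (log2 FC -0.72 / -0.81 / -0.45, SE 0.35), again with NT NC replicate 2 the highest.

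Related families had the same sign. All 9 tested OAS list genes, a list built around the synthetases of the 2-5A antiviral messenger and sharing 2 genes with the preceding list, were lower (5 at an unadjusted p under 0.05, where 4.71% of all genes were), with a median of -0.48. Oas3 had 33.1, 19.9 and 28.3 CPM in NT NDE, against 33.5, 68.4 and 47.1 CPM in NT NC. Among guanylate-binding and immunity-related GTPases, which attack the vacuoles of intracellular microbes, 17 of 18 were lower and 10 were under 0.05 (background 4.71%), with a median of -0.40. DESeq2 called 5 of them lower (background 0.639%) and the 6 libraries alone 3 (background 0.133%). Gbp4 had 142, 131 and 123 CPM in NT NDE, against 175, 201 and 178 CPM in NT NC (log2 FC -0.48 / -0.49 / -0.40, SE 0.088, edgeR adjusted p = 0.101). Gbp6 had 8.88, 7.99 and 8.3 CPM in NT NDE, against 13.6, 16.6 and 12.3 CPM in NT NC (log2 FC -0.75 / -0.76 / -0.69). No NT NDE value of either gene reached an NT NC value. Tgtp1 had 15.4, 13 and 14.3 CPM in NT NDE, against 22.2, 24 and 21.4 CPM in NT NC (log2 FC -0.66 / -0.71 / -0.64), and Gbp10, at a few CPM, had the lowest fold change of these (log2 FC -1.27 / -1.19 / -0.98).

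PYHIN genes, a family of nuclear and cytosolic DNA-binding proteins, were lower in 9 of 11 cases (6 under 0.05, background 4.71%, median -0.36). Ifi208 had 93.7, 81.1 and 77.7 CPM in NT NDE, against 122, 153 and 128 CPM in NT NC (log2 FC -0.67 / -0.63 / -0.53, SE 0.12, edgeR adjusted p = 0.101), Ifi214 was at log2 FC -0.76 / -0.72 / -0.48 and Ifi203 at log2 FC -0.38 / -0.38 / -0.18. Aim2, the inflammasome DNA sensor of the family, was at log2 FC -0.078 / -0.14 / -0.038. In the schlafen family 7 of 8 were lower (5 under 0.05, background 4.71%, median -0.26), with Slfn8 at log2 FC -0.67 / -0.60 / -0.40 and Slfn5 at log2 FC -0.50 / -0.39 / -0.27 besides Slfn1. Slfn4, which is known from myeloid cells, was the member with a positive fold change (log2 FC 0.70 / 0.71 / 0.77).

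Upstream, genes that sense and transmit interferon signals had no common direction. Of 25 tested sensors, receptors and transcription factors 11 were higher and 14 lower, with a median of -0.010 / -0.067 / -0.034. Among those lower at an unadjusted p under 0.05 were Ifih1, which encodes the RNA sensor MDA5 and had 33.9, 34.7 and 35.8 CPM in NT NDE, against 49.1, 61.4 and 47.9 CPM in NT NC (log2 FC -0.60 / -0.58 / -0.49, SE 0.14), and Ddx58, which encodes RIG-I (log2 FC -0.38 / -0.37 / -0.24). As background, both are themselves interferon-inducible. Higher at that level were Irf8 at 541, 523 and 507 CPM in NT NDE, against 446, 437 and 432 CPM in NT NC (log2 FC 0.26 / 0.22 / 0.23), the STING gene Tmem173 (log2 FC 0.16 / 0.13 / 0.13) and the adaptor gene Myd88 (log2 FC 0.18 / 0.21 / 0.29). No listed interferon gene held enough counts to be tested. Ifnb1 had 1 count in NT NDE replicate 2 and 0 elsewhere, Ifna1, Ifna2, Ifna4, Ifna5 and Ifna6 had 0 counts in all 6 libraries, which allows up to 3 counts in each, and Ifng had 7, 5 and 5 counts in NT NDE against 2, 2 and 9 in NT NC.

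The size of the interferon difference moved with the NT NC libraries. With Bpifa2 as a covariate the medians were -0.50 for the IFIT, MX and ISG15 list (32 of 32 lower, 6 at an unadjusted p under 0.05 where 3.9% of all genes were), -0.49 for OAS (1 of 9 under 0.05), -0.35 for the GTPases (6 of 18), -0.35 for PYHIN (3 of 11) and -0.24 for schlafens (2 of 8). The medians thus stayed close to those of the first fit, while in each of the 5 lists fewer members were under 0.05. Against NT NC replicate 1 alone, without the salivary libraries, they were -0.24 (31 of 32 lower), -0.21 (7 of 9), -0.23 (17 of 18), -0.14 (8 of 11) and -0.14 (5 of 8), and 0 members of these lists were called in that fit. The IFIT, MX and ISG15 median was -0.37 when NT NC replicate 2 was left out and -0.69 when NT NC replicate 1 was. The OAS median was -0.32, the GTPase median -0.25 and the PYHIN median -0.17 without NT NC replicate 2. These lists hold near-identical genes (the IFIT, OAS1, GBP, PYHIN and Tgtp pairs), between which the counting may have divided reads in a way that cannot be checked.

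**Figure D2:**
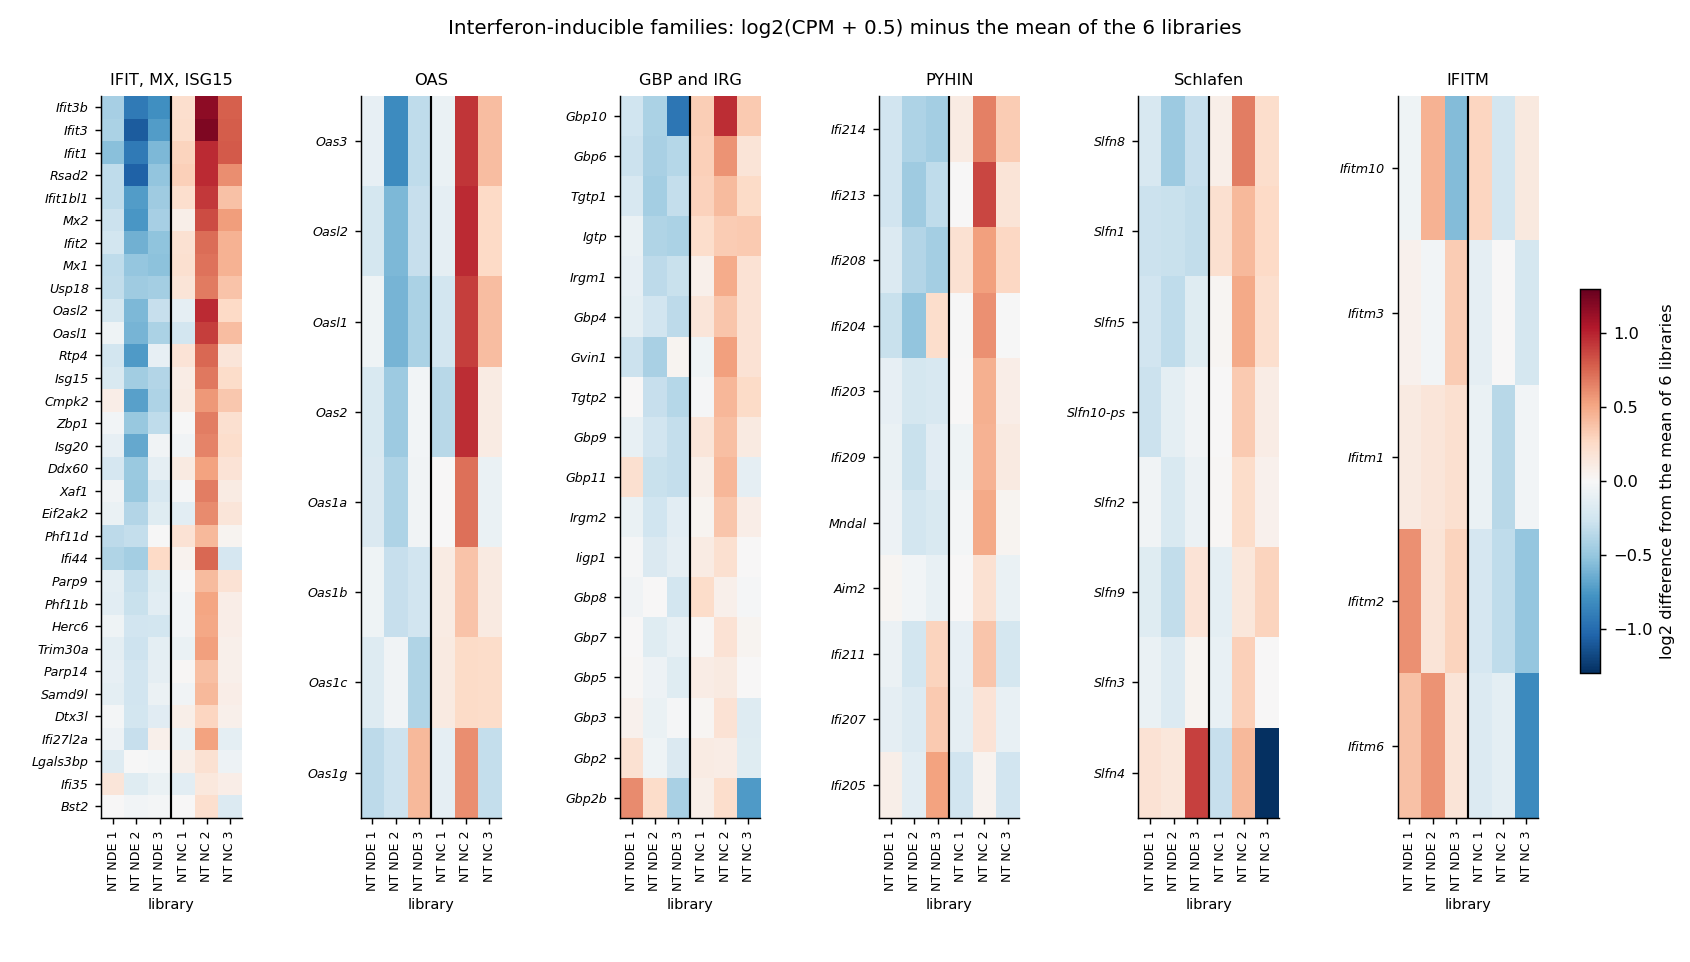
Members of 6 interferon-inducible families (1 OAS list gene is not drawn) by library, as log2(CPM + 0.5) minus the mean of the 6 libraries, with NT NDE columns left of the line and NT NC columns right of it, and blue below and red above the mean. The IFIT, MX and ISG15 panel is blue in NT NDE and red in NT NC for most genes, NT NC replicate 2 is the reddest column, and 4 of the 5 IFITM genes run the other way.

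IFITM genes, which block viral entry at membranes, had the opposite sign to the other interferon-inducible families: 4 of 5 tested were higher and 3 were under 0.05 (background 5.67%), without overlap between the groups. Ifitm2 had 11.6, 8.53 and 9.3 CPM in NT NDE, against 6.41, 5.88 and 5.15 CPM in NT NC (log2 FC 0.75 / 0.67 / 0.61, SE 0.16, edgeR adjusted p = 0.154). Ifitm1 had 28.4, 29.3 and 30.4 CPM in NT NDE, against 24.6, 20.2 and 25.4 CPM in NT NC (log2 FC 0.33 / 0.34 / 0.26). Ifitm6 had 6.03, 7.02 and 5.15 CPM in NT NDE, against 3.94, 4.08 and 2.32 CPM in NT NC (log2 FC 0.81 / 0.86 / 0.62). The family median was 0.33, 0.34 with Bpifa2 and 0.26 without the salivary libraries. Ifitm1, Ifitm2 and Ifitm6 are abundant in neutrophils, whose granule list had a median of 0.60 here, and the part of those cells was not tested. The interferon-inducible chemokine genes gave no uniform picture: Cxcl10, which recruits activated T cells, had 21.8, 12.6 and 17.7 CPM in NT NDE, against 29, 31.1 and 20.5 CPM in NT NC (log2 FC -0.63 / -0.74 / -0.74), Ccl5 was at log2 FC -0.36 / -0.59 / -0.74 and Cxcl9 at log2 FC -0.026 / 0.020 / 0.025. MHC class I and its peptide loading had 15 of 21 genes lower (3 under 0.05, background 4.71%) with a median of -0.056 / -0.10 / -0.073 (range -0.065 without NT NC replicate 3 to -0.0080 without NT NDE replicate 3). With Bpifa2 19 were lower. The nonclassical class I gene H2-T22 had 174, 175 and 162 CPM in NT NDE, against 206, 217 and 189 CPM in NT NC (log2 FC -0.26 / -0.32 / -0.27), the class I transactivator gene Nlrc5 was at log2 FC -0.24 / -0.27 / -0.19, H2-T23 at log2 FC -0.18 / -0.24 / -0.15 and the classical gene H2-K1 at log2 FC -0.10 / -0.16 / -0.19. MHC class II had 6 higher and 6 lower (median 0.013 / -0.050 / 0.074, with H2-Ab1 at log2 FC 0.11 / 0.023 / 0.088).

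Most follicular dendritic cell genes had a positive fold change in NT NDE. Of 22 tested 20 were higher, 9 at an unadjusted p under 0.05 (background 5.67%) and 9 with no overlap (background 9.71%), with a median log2 fold change of 0.22. The list's mean log2(CPM + 0.5) was 6.13, 6.15 and 6.12 in NT NDE replicates 1 to 3, against 5.98, 5.84 and 5.92 in NT NC replicates 1 to 3, so that the NT NDE libraries were nearly level and all above NT NC. Besides Cxcl13 and Coch, Mfge8, which opsonizes dying cells for the macrophages of germinal centres, had 685, 742 and 765 CPM in NT NDE, against 644, 542 and 582 CPM in NT NC (log2 FC 0.31 / 0.25 / 0.18, SE 0.082). The adhesion gene Icam1 had 175, 175 and 177 CPM in NT NDE, against 162, 144 and 142 CPM in NT NC (log2 FC 0.24 / 0.20 / 0.12). The complement receptor gene Cr2, shared with B cells, had 520.5, 456 and 437 CPM in NT NDE, against 327, 429.6 and 407 CPM in NT NC (log2 FC 0.28 / 0.29 / 0.53). DESeq2 called 3 of the list higher, Cxcl13, Coch and Mfge8 (background 0.518%). With Bpifa2 the median was 0.21 (7 under 0.05, where 5.26% of all genes were higher at that level), while against NT NC replicate 1 alone it was 0.091, with 15 of 22 higher. Cxcl13 and Coch kept their size in that fit (0.82 and 0.95), and Mfge8 and Icam1 were at 0.18 and 0.12.

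In the follicular helper T cell list 10 of 15 were higher and 4 were under 0.05 (background 5.67%), with a median of 0.075 / 0.066 / 0.12 (range 0.024 without NT NDE replicate 3 to 0.10 without NT NC replicate 3). The median was thus small and moved with single libraries. With Bpifa2 4 members were higher and 2 lower at that level (background 5.26% and 3.9%). After Maf came Tox2, a transcription regulator of these cells, at 17.5, 19.4 and 21.8 CPM in NT NDE, against 13.9, 14.3 and 14.6 CPM in NT NC (log2 FC 0.45 / 0.44 / 0.49, SE 0.11). Il21, their cytokine for germinal centre B cells, had 4.42, 5.09 and 4.78 CPM in NT NDE, against 0.619, 2.5 and 2.27 CPM in NT NC (log2 FC 1.38 / 1.55 / 2.93, SE 0.37). Il21 was called against NT NC replicate 1 alone (adjusted p = 0.0253), the library with the lowest value, as was Pou2af1, the B cell coactivator OCA-B, at 293, 265 and 305 CPM in NT NDE, against 195, 279.6 and 226 CPM in NT NC. Bcl6, the master regulator of these cells and of germinal centres, was at 70.6, 72.8 and 80.5 CPM in NT NDE, against 68.8, 70.4 and 73.3 CPM in NT NC (log2 FC 0.075 / 0.014 / 0.12). Germinal centre B cell genes were higher in 17 of 19 cases (3 under 0.05, background 5.67%) with a median of 0.22 / 0.26 / 0.24. The list's mean log2(CPM + 0.5) was 4.96, 5.06 and 5.43 in NT NDE replicates 1 to 3, against 4.70, 5.14 and 4.67 in NT NC replicates 1 to 3, so that NT NC replicate 2 lay among the NT NDE libraries, and the median was 0.12 without NT NC replicate 1. Gcsam, a germinal centre signalling adaptor, had 20.1, 20.3 and 26.4 CPM in NT NDE, against 12.7, 17 and 13.1 CPM in NT NC (log2 FC 0.64 / 0.94 / 0.82), without overlap.

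The lymphotoxin and noncanonical NF-kB list, which maintains follicular dendritic cells, had 17 of 19 genes higher with 1 under 0.05, near the background of 5.67%, and a median of 0.13 / 0.10 / 0.074 (range 0.071 without NT NDE replicate 1 to 0.17 without NT NC replicate 3). Nfkb2, its p100 precursor gene, had 255, 258 and 242 CPM in NT NDE, against 239, 204 and 219 CPM in NT NC (log2 FC 0.19 / 0.10 / 0.075). Ltbr, the lymphotoxin receptor gene, had 29.7, 26.6 and 29.4 CPM in NT NDE, against 23.7, 18.5 and 24.5 CPM in NT NC (log2 FC 0.36 / 0.49 / 0.27). With Bpifa2 11 were higher and 8 lower. Of 13 homeostatic chemokine and receptor genes 8 were higher and 5 lower (median 0.16 / 0.076 / 0.22, range 0.069 without NT NC replicate 1 to 0.19 without NT NDE replicate 1). Without overlap 2, Cxcl13 and Cxcl12, were higher (background 9.71%) and 1 lower (background 9.18%). The stromal chemokine gene Cxcl12 had 485, 526 and 484 CPM in NT NDE, against 473, 346 and 439.8 CPM in NT NC (log2 FC 0.25 / 0.37 / 0.076, SE 0.16), where NT NC replicate 1 lay just below NT NDE. The lower gene was Cxcr6, a chemokine receptor of activated T cells, with 21, 28.3 and 24.3 CPM in NT NDE, against 33.8, 28.4 and 34.9 CPM in NT NC (log2 FC -0.40 / -0.56 / -0.46, SE 0.24). Ccr7, the receptor that brings T cells and dendritic cells to the T zone, was at log2 FC -0.15 / -0.26 / -0.33 (SE 0.084).

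**Figure D3:**
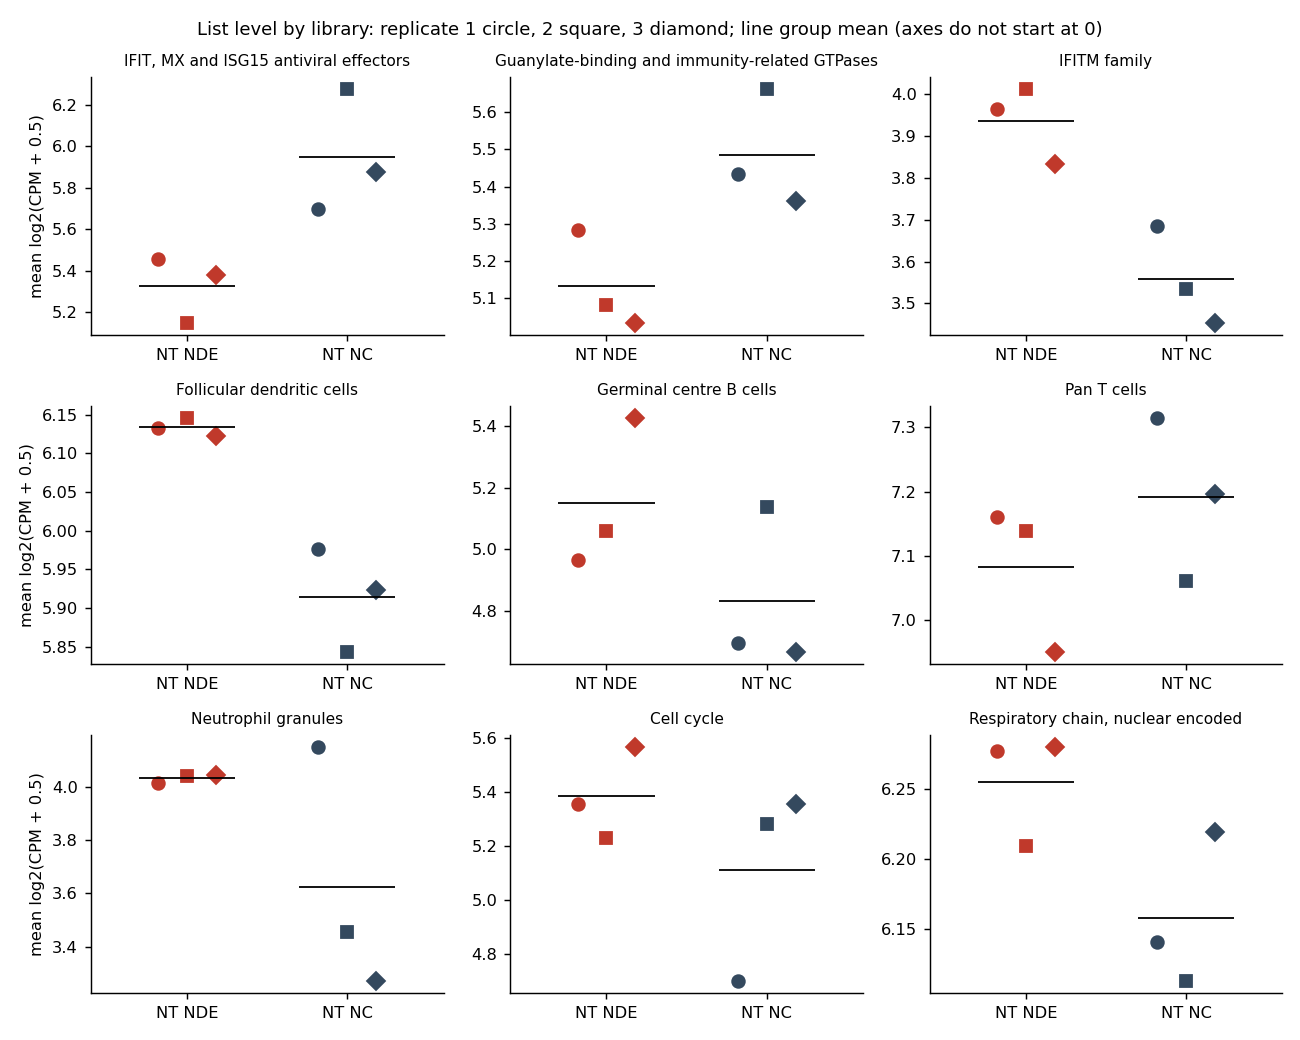
Mean log2(CPM + 0.5) of the tested members of 9 gene lists in each tumour-free library, with NT NDE on the left, NT NC on the right, replicates 1 to 3 as circle, square and diamond, and a line at each group's mean. The axes do not start at 0. The IFIT, GTPase, IFITM and follicular dendritic cell lists separate the groups, while NT NC replicate 1 lies above NT NDE for neutrophil granules and far below the other 5 libraries for the cell cycle.

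Most T cell genes had a negative fold change and most B cell genes a positive one, both small. Of 20 pan T cell genes 18 were lower (4 at an unadjusted p under 0.05, background 4.71%), 2 of them without overlap (background 9.18%), and the median was -0.13. The costimulatory receptor gene Cd28 had 77.2, 86.4 and 86.5 CPM in NT NDE, against 98.5, 99 and 100.2 CPM in NT NC (log2 FC -0.25 / -0.23 / -0.24, SE 0.072). The groups did not overlap. The CD8 chain genes did overlap, Cd8b1 with 139.6, 129.6 and 110.2 CPM in NT NDE, against 163, 134 and 154 CPM in NT NC (log2 FC -0.25 / -0.31 / -0.36). Cd8a had 249.9, 247 and 203 CPM in NT NDE, against 297, 248 and 265 CPM in NT NC (log2 FC -0.21 / -0.28 / -0.35). Cd3e also overlapped (log2 FC -0.10 / -0.23 / -0.28). With Bpifa2 12 of 20 were lower at an unadjusted p under 0.05 (background 3.9%) and the median was -0.23, and without the salivary libraries it was -0.25. The median was -0.038 without NT NC replicate 1. Naive T cell genes had 12 of 15 lower (median -0.13 / -0.20 / -0.16, range -0.15 without NT NC replicate 3 to -0.063 without NT NC replicate 1). The survival receptor gene Il7r was at 155, 187 and 150.2 CPM in NT NDE, against 205, 191 and 223 CPM in NT NC (log2 FC -0.33 / -0.25 / -0.32), Dapl1 at log2 FC -0.34 / -0.34 / -0.41 and Satb1 at log2 FC -0.14 / -0.21 / -0.17.

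B cell identity genes were higher in 15 of 18 cases, with a median of 0.087 / 0.012 / 0.23 (range 0.0041 without NT NC replicate 1 to 0.16 without NT NC replicate 2). In the last of these fits 17 were higher. Spib, a transcription factor of B cells and plasmacytoid dendritic cells, had 403, 386 and 381 CPM in NT NDE, against 322, 339 and 326 CPM in NT NC (log2 FC 0.25 / 0.20 / 0.28) and was the member under 0.05. Plasma cell genes had 10 higher and 9 lower, with a median of 0.0079 / 0.20 / 0.23 (range -0.075 without NT NDE replicate 3 to 0.17 without NT NC replicate 2). With Bpifa2 13 were higher, and against NT NC replicate 1 alone 17. The endoplasmic reticulum folding genes Sdf2l1 was at log2 FC 0.41 / 0.57 / 0.58 and Pdia4 at log2 FC 0.35 / 0.40 / 0.54, and Jchain, the joining chain of secreted antibody, had 243, 317 and 527 CPM in NT NDE, against 215, 663 and 228 CPM in NT NC. Antibody constant region genes varied widely between libraries. Ighg1 had 72.5, 134 and 879.9 CPM in NT NDE, against 24.8, 141 and 85 CPM in NT NC (log2 FC 2.11 / 3.06 / 3.87, SE 1.37). Ighe had 4.99, 0.751 and 20.4 CPM in NT NDE, against 0.225, 1.58 and 1.21 CPM in NT NC (log2 FC 3.06 / 3.36 / 5.24, SE 1.42). Igha had 63.6, 59.4 and 286 CPM in NT NDE, against 34.4, 80.5 and 38.3 CPM in NT NC. NT NDE replicate 3 was the highest library for all 3 isotypes and NT NC replicate 1 the lowest, and with that spread no isotype was under an unadjusted p of 0.05. The list median was 0.26 / 0.31 / 0.77, and in the first fit it was 0.68 when NT NC replicate 2 was left out and 0.14 when NT NC replicate 1 was.

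Among other lymphocyte lists, cytotoxic and natural killer genes had 9 higher and 12 lower (median -0.066 / -0.14 / -0.068, range -0.15 without NT NDE replicate 1 to 0.018 without NT NC replicate 2). The inhibitory receptor subunit gene Klrd1 was at 38.8, 42.4 and 35.1 CPM in NT NDE, against 49.3, 54.5 and 46.2 CPM in NT NC (log2 FC -0.37 / -0.37 / -0.35), the perforin gene Prf1 at log2 FC -0.24 / -0.33 / -0.35 and Eomes, a transcription factor of these cells, at log2 FC -0.24 / -0.34 / -0.35. Regulatory T cell and checkpoint genes had a median of -0.046 / -0.092 / -0.19 (range -0.13 without NT NDE replicate 2 to 0.041 without NT NC replicate 1). Foxp3 had 29, 28.6 and 23.6 CPM in NT NDE, against 31.1, 24.5 and 29.4 CPM in NT NC, and the checkpoint gene Lag3 was at log2 FC -0.30 / -0.39 / -0.43. The interleukin-17 and gamma delta T cell list had 10 of 16 genes higher and a median of 0.10 / 0.13 / 0.36 (range 0.023 without NT NC replicate 1 to 0.25 without NT NC replicate 3). Against NT NC replicate 1 alone 14 were higher. Apart from Maf and Il17f, the interleukin-1 receptor gene Il1r1 had 59.4, 68.2 and 80.5 CPM in NT NDE, against 57.2, 52.2 and 61.5 CPM in NT NC (log2 FC 0.28 / 0.36 / 0.28). Il22, an epithelial repair cytokine, had 0.208, 0.643 and 0.525 CPM in NT NDE, against 0.0563, 0.25 and 0.253 CPM in NT NC (log2 FC 1.22 / 1.32 / 2.89, SE 0.59).

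Neutrophil genes were higher on balance, but the 3 NT NC libraries did not form 1 group. Of 22 granule genes 16 were higher, 9 at an unadjusted p under 0.05 (background 5.67%) and 9 without overlap (background 9.71%), with a median of 0.60. The list's mean log2(CPM + 0.5), however, was 4.01, 4.04 and 4.04 in NT NDE replicates 1 to 3, against 4.15, 3.45 and 3.27 in NT NC replicates 1 to 3, so that NT NC replicate 1 lay above NT NDE and the salivary NT NC replicates 2 and 3 below it. Hp, the haemoglobin-binding haptoglobin, had 11.9, 16 and 15.4 CPM in NT NDE, against 8.33, 7 and 5.56 CPM in NT NC (log2 FC 1.05 / 1.21 / 0.79, SE 0.25). Lcn2, an iron-capturing granule lipocalin, had 16.8, 21.3 and 18.1 CPM in NT NDE, against 13.1, 8.75 and 8.43 CPM in NT NC (log2 FC 0.90 / 0.74 / 0.52). For both the lowest library was NT NC replicate 3. Cd177, a neutrophil surface protein, had 8.68, 8.26 and 6.99 CPM in NT NDE, against 6.64, 3.13 and 3.08 CPM in NT NC (log2 FC 0.91 / 0.62 / 0.27). The alarmin gene S100a9 had 87.3, 81.6 and 65.6 CPM in NT NDE, against 55.1, 38.8 and 26.6 CPM in NT NC (log2 FC 0.96 / 0.72 / 0.50). These 4 genes did not overlap between the groups, but they were picked by small p or after their values were seen. Of the 22 granule genes 6 were lower, with the lowest log2 fold change at -1.25. The granule median was 0.38 with Bpifa2 and 0.085 against NT NC replicate 1 alone, 0.38 without NT NC replicate 3 and 0.96 without NT NC replicate 1. Genes of neutrophil receptors, by contrast, separated the groups: the mean log2(CPM + 0.5) was 2.52, 2.51 and 2.52 in NT NDE replicates 1 to 3, against 2.29, 2.21 and 2.12 in NT NC replicates 1 to 3, and 12 of 14 were higher (4 under 0.05, background 5.67%, median 0.37 / 0.36 / 0.27). Itgam, the CD11b integrin, had 20.5, 20.6 and 23.1 CPM in NT NDE, against 17.4, 18 and 16.1 CPM in NT NC (log2 FC 0.32 / 0.38 / 0.30). Cxcr2, the receptor for neutrophil chemokines, had 30.9, 36.3 and 36.4 CPM in NT NDE, against 30.04, 27.7 and 25.7 CPM in NT NC (log2 FC 0.31 / 0.29 / 0.20).

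Monocyte genes had 15 of 20 higher with 5 higher and 2 lower at an unadjusted p under 0.05, where 5.67% and 4.71% of all genes were (median 0.16 / 0.25 / 0.12, range 0.091 without NT NDE replicate 3 to 0.19 without NT NDE replicate 1). The lower ones, Ly6c2 (log2 FC -0.48 / -0.47 / -0.34) and Ms4a4c (log2 FC -0.44 / -0.44 / -0.19), are, as background, themselves interferon-inducible. In the cytokine list 13 of 23 genes were higher (median 0.078 / 0.085 / 0.028, range -0.012 without NT NC replicate 3 to 0.085 without NT NC replicate 1), 2 of them at an unadjusted p under 0.05 (background 5.67%). Il33, an alarmin of lymph node stroma, had 87.6, 93.8 and 121 CPM in NT NDE, against 77.4, 77.7 and 79.8 CPM in NT NC (log2 FC 0.36 / 0.45 / 0.38, SE 0.11). Il1b, the inflammasome cytokine, had 8.73, 12.1 and 15.8 CPM in NT NDE, against 4.56, 8.67 and 5.05 CPM in NT NC (log2 FC 0.99 / 1.42 / 1.42, SE 0.36). Neither gene overlapped between the groups. Tnfaip3, an NF-kB feedback inhibitor, was at log2 FC -0.11 / -0.13 / -0.28.

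Conventional and migratory dendritic cell genes had no common direction. The list median was -0.021 / 0.0023 / -0.10 (11 higher, 13 lower, range -0.064 without NT NDE replicate 2 to 0.15 without NT NC replicate 1). Xcr1, a chemokine receptor of the cross-presenting subset, had 32.7, 32.7 and 28.2 CPM in NT NDE, against 25.9, 26.2 and 23.7 CPM in NT NC (log2 FC 0.30 / 0.44 / 0.27). Clec9a, the dead-cell receptor of the same subset, had 31.4, 34.9 and 30.4 CPM in NT NDE, against 25.1, 27 and 23.1 CPM in NT NC (log2 FC 0.36 / 0.51 / 0.36). Both were higher without overlap, whereas the lectin gene Cd209a was lower, with 4.31, 6.92 and 5.52 CPM in NT NDE, against 10.2, 7.17 and 9.95 CPM in NT NC (log2 FC -0.70 / -0.72 / -0.87, SE 0.20). Plasmacytoid dendritic cells, known as strong producers of type I interferon, had a list median of -0.055 / -0.023 / -0.066 (12 of 17 lower, one of them Klk1, which is also a salivary gene), and their marker Siglech had 95.7, 126 and 109 CPM in NT NDE, against 146, 96.8 and 113 CPM in NT NC, with overlap. Sinus macrophage genes had 15 of 23 higher and a median of 0.063 / 0.17 / -0.084 (range 0.015 without NT NC replicate 3 to 0.14 without NT NC replicate 1). Of them 0 were at an unadjusted p under 0.05 in either direction. Their sign turned with the fit: with Bpifa2 19 were higher, and without the salivary libraries 18 were lower. Siglec1, the sialoadhesin of subcapsular and medullary macrophages, had 294, 284 and 306 CPM in NT NDE, against 237, 256 and 239 CPM in NT NC (log2 FC 0.28 / 0.47 / 0.32, SE 0.14). Marco, a scavenger receptor, had 451, 417 and 453 CPM in NT NDE, against 427, 277 and 270.4 CPM in NT NC, where NT NC replicate 1 lay with NT NDE. Complement genes had 19 of 25 higher (median 0.12 / 0.20 / 0.011, range 0.059 without NT NC replicate 3 to 0.20 without NT NDE replicate 1). The anaphylatoxin receptor gene C5ar1 was at 3.12, 3.16 and 3.68 CPM in NT NDE, against 2.31, 1.21 and 1.01 CPM in NT NC (log2 FC 1.15 / 1.09 / 0.53, SE 0.30).

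Among stromal lists other than that of follicular dendritic cells, the endothelial ones had the highest medians in the first fit. Lymphatic endothelium had 13 of 17 genes higher and a median of 0.20 / 0.25 / 0.0014 (range 0.080 without NT NDE replicate 3 to 0.26 without NT NC replicate 1). With Bpifa2 16 were higher, and against NT NC replicate 1 alone 9. Blood endothelium and high endothelial venules had 19 of 24 higher and a median of 0.14 / 0.093 / -0.11 (range 0.019 without NT NDE replicate 3 to 0.26 without NT NC replicate 1). Of them 17 were lower in the last fit. In each of these lists 2 members were under 0.05 (background 5.67%). The medians were 0.090 / 0.031 / -0.027 for fibroblastic reticular cells (range 0.032 without NT NDE replicate 2 to 0.19 without NT NC replicate 1), 0.00019 / 0.057 / -0.13 for collagens, -0.018 / 0.029 / -0.088 for matricellular proteins and 0.016 / 0.049 / -0.14 for smooth muscle. Against NT NC replicate 1 alone lymphatic endothelium was the single stromal list of this paragraph without a negative median. Pdpn, the podoplanin of reticular and lymphatic cells, had 10.03, 10.7 and 10.4 CPM in NT NDE, against 8.16, 7.92 and 8.28 CPM in NT NC (log2 FC 0.35 / 0.34 / 0.35, SE 0.14), and Bst1 was at log2 FC 0.27 / 0.25 / 0.21. The homing ligand gene Glycam1 had 394, 694 and 441 CPM in NT NDE, against 415, 277 and 359 CPM in NT NC (log2 FC 0.54 / 0.56 / 0.30, SE 0.28), with overlap. Thbs4, a matricellular thrombospondin that carried the smallest p of its list, had 15.3, 20.6 and 14.5 CPM in NT NDE, against 9.17, 7.21 and 13.2 CPM in NT NC (log2 FC 0.77 / 0.95 / 0.87).

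Genes that receive signals from nerves were divided between the directions. Of 15 tested neuropeptide and adrenergic receptor genes 8 were higher and 7 lower, with 1 at an unadjusted p under 0.05 (background 5.67%) and 1, the VIP receptor gene Vipr2 (log2 FC 0.50 / 0.83 / 0.44), without overlap (background 9.71%). The median was 0.048 / 0.084 / -0.17 (range -0.024 without NT NC replicate 2 to 0.12 without NT NC replicate 1). Calcrl, the core of the CGRP receptor, had 57.2, 71.5 and 66.5 CPM in NT NDE, against 77.1, 67.3 and 71.3 CPM in NT NC (log2 FC -0.14 / -0.13 / -0.24, SE 0.083). Its partner Ramp1 had 22.1, 21.4 and 17.7 CPM in NT NDE, against 25.4, 17.6 and 20.6 CPM in NT NC (log2 FC -0.052 / -0.12 / -0.31, SE 0.13). Tacr1, the substance P receptor, had 4.05, 3.81 and 4.1 CPM in NT NDE, against 3.83, 2.75 and 2.93 CPM in NT NC (log2 FC 0.33 / 0.084 / 0.060, SE 0.20). In these 3 genes the groups overlapped. Ramp2, the adrenomedullin receptor partner, was the member under 0.05 at 31.5, 30.4 and 39.1 CPM in NT NDE, against 34.7, 23.2 and 21.9 CPM in NT NC, where NT NC replicate 1 lay among NT NDE. Of 31 Schwann cell and nerve fibre genes 16 could be tested. Calca and Tac1, which encode CGRP and substance P, had at most 1 count in any of the 6 libraries. Axon guidance genes had 20 of 27 higher (median 0.10 / 0.25 / 0.050, range 0.053 without NT NC replicate 2 to 0.18 without NT NC replicate 1). In front were the semaphorin genes Sema7a (log2 FC 0.26 / 0.23 / 0.13) and Sema3f (log2 FC 0.37 / 0.40 / 0.24).

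The cell cycle list moved with NT NC replicate 1. In the cell cycle list 39 of 40 genes were higher, 8 at an unadjusted p under 0.05 (background 5.67%) and 3 without overlap (background 9.71%), with a median of 0.26. The list's mean log2(CPM + 0.5) was 5.36, 5.23 and 5.57 in NT NDE replicates 1 to 3, against 4.70, 5.28 and 5.36 in NT NC replicates 1 to 3. NT NC replicate 1 stood below all other libraries, and without it the median was 0.065. With Bpifa2 the median was 0.43 (20 of 40 under 0.05, background 5.26%), and against NT NC replicate 1 alone it was 0.75. Mki67, the proliferation antigen Ki-67, had 298, 273 and 358 CPM in NT NDE, against 154, 306 and 291 CPM in NT NC (log2 FC 0.31 / 0.54 / 1.01, SE 0.23), with overlap. Stmn1, a microtubule regulator of dividing cells, had 62.9, 56.1 and 63.8 CPM in NT NDE, against 37, 48.2 and 49.2 CPM in NT NC (log2 FC 0.44 / 0.53 / 0.72, SE 0.10), and H2afx, the DNA damage histone, was at log2 FC 0.28 / 0.29 / 0.32. These 2 genes did not overlap.

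Nuclear genes of the respiratory chain were higher by a small margin: 25 of 30 were higher, 10 at an unadjusted p under 0.05 (background 5.67%) and 11 without overlap (background 9.71%), with a median of 0.079. Ndufb8 of complex I had 31, 23.8 and 25.2 CPM in NT NDE, against 19.6, 19.6 and 23 CPM in NT NC (log2 FC 0.36 / 0.38 / 0.44), Ndufa2 was at log2 FC 0.30 / 0.24 / 0.32 and Cox5b of complex IV at log2 FC 0.23 / 0.21 / 0.23. Genes encoded in mitochondrial DNA leaned the other way, 11 of 12 lower with a median of -0.13 and mt-Atp6 at log2 FC -0.54 / -0.38 / -0.20. With Bpifa2 the medians were 0.11 and -0.045, and without the salivary libraries 0.11 and -0.072. Cytosolic ribosomal protein genes had 23 of 33 higher (median 0.044 / -0.010 / 0.015, range 0.012 without NT NC replicate 2 to 0.063 without NT NC replicate 3). Unfolded protein response genes had 12 of 18 higher (median 0.10 / 0.28 / 0.32, range -0.0071 without NT NDE replicate 3 to 0.16 without NT NC replicate 2). Led by Sdf2l1 and Pdia4, 5 were under 0.05 (background 5.67%). With Bpifa2 16 were higher and 9 under 0.05 (background 5.26%). Against NT NC replicate 1 alone 15 were higher. Heat shock genes had 17 of 19 higher (median 0.12 / 0.24 / 0.23, range 0.068 without NT NC replicate 1 to 0.17 without NT NDE replicate 2), with Hspe1 at log2 FC 0.23 / 0.25 / 0.36. Cholesterol synthesis genes had 19 of 23 higher (median 0.078 / 0.11 / 0.24, range 0.024 without NT NC replicate 1 to 0.17 without NT NC replicate 3).

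Immediate early genes had a median of 0.038 / 0.038 / 0.0044 over 24, with 4 higher at an unadjusted p under 0.05 (background 5.67%). Jun had 43.7, 44.5 and 42.6 CPM in NT NDE, against 30.6, 32.6 and 33.3 CPM in NT NC (log2 FC 0.44 / 0.43 / 0.51, SE 0.11). Zfp36, which destabilizes cytokine mRNAs, had 208, 210.3 and 194 CPM in NT NDE, against 169, 174 and 171 CPM in NT NC (log2 FC 0.25 / 0.18 / 0.28), and Junb was at log2 FC 0.25 / 0.22 / 0.31. These 3 did not overlap, while Fos did, at 6.81, 7.29 and 8.04 CPM in NT NDE, against 4.33, 11.3 and 6.06 CPM in NT NC. Glucocorticoid-responsive genes had 10 of 18 higher and a median of 0.016 / 0.20 / -0.0077. The covariate thus moved it, and with Bpifa2 13 were higher and 4 under 0.05 (background 5.26%). Fkbp5, the receptor's co-chaperone, had 96.7, 106 and 116 CPM in NT NDE, against 76, 76.2 and 100.05 CPM in NT NC (log2 FC 0.33 / 0.41 / 0.48, SE 0.10), and Cebpd was at log2 FC 0.47 / 0.68 / 0.60. Circadian clock genes had a median of -0.048 / 0.052 / -0.041 and Notch pathway genes of 0.064 / 0.040 / -0.028, with Hes1, a Notch target, at 21.1, 18 and 17.3 CPM in NT NDE, against 11.9, 16.5 and 15.1 CPM in NT NC (log2 FC 0.37 / 0.40 / 0.66).

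**Figure D4:**
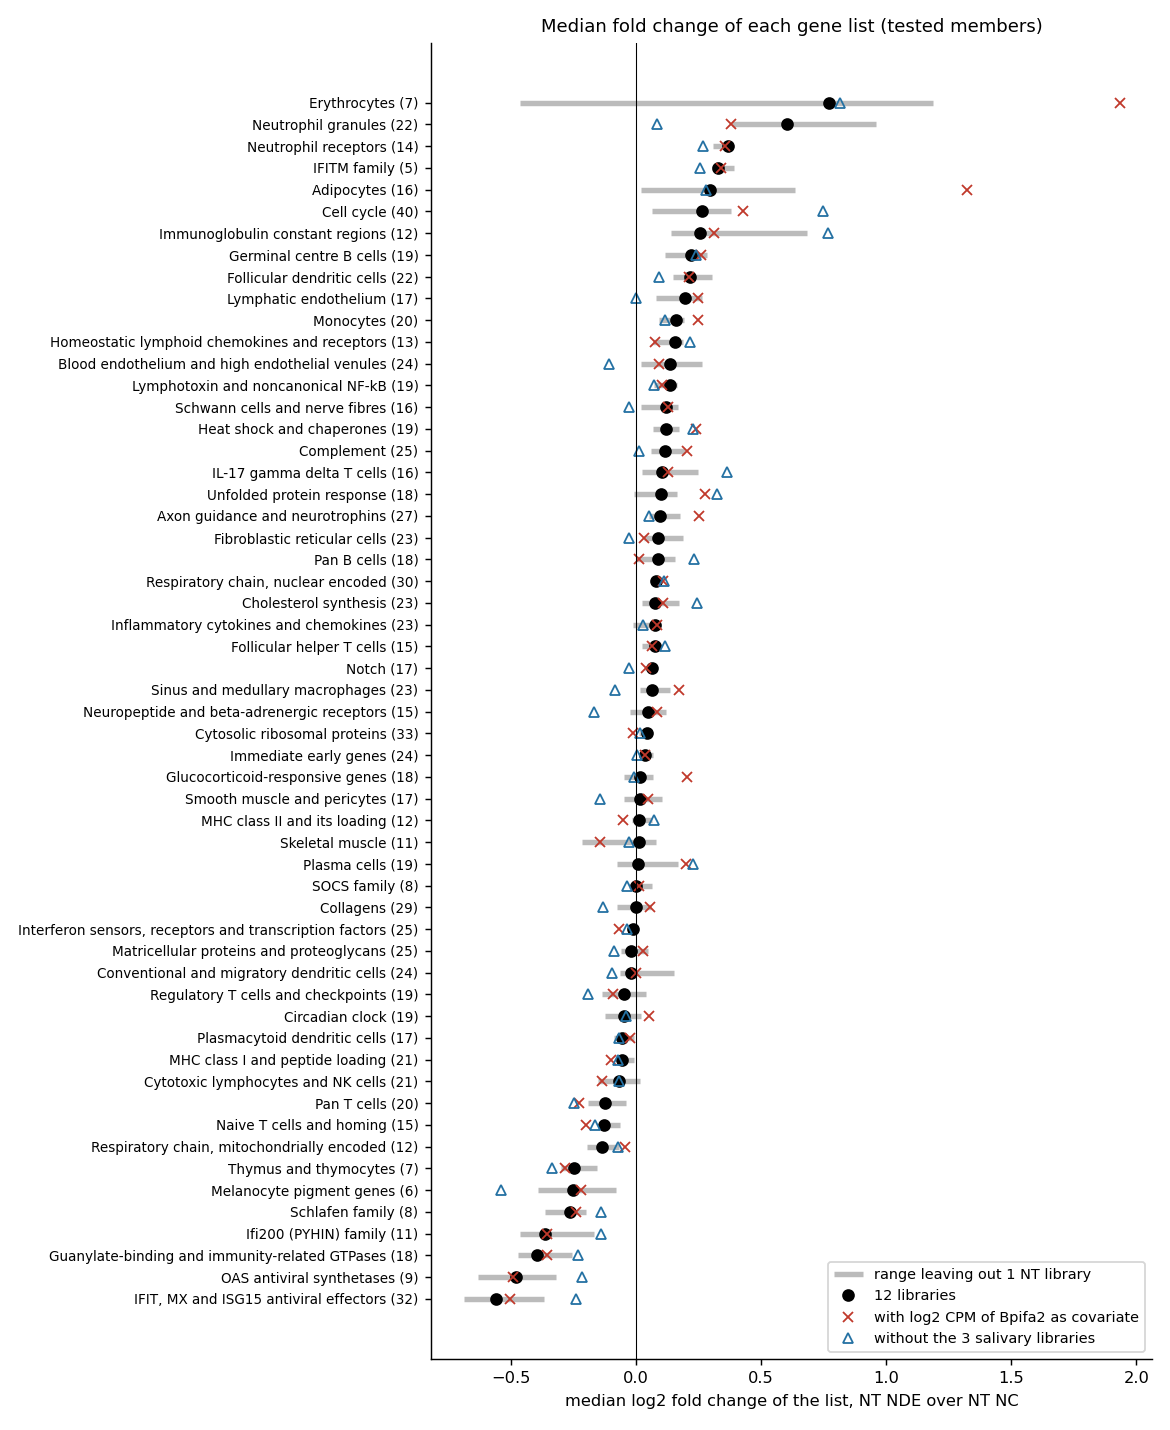
Median log2 fold change, NT NDE over NT NC, of the tested members of each gene list with 5 or more tested (number in brackets, salivary list left out), from the 12 libraries (dots), with the Bpifa2 covariate (crosses) and without the 3 salivary libraries (triangles), with grey bars for the range when 1 tumour-free library is left out. Among the dots the 5 interferon effector families lie lowest, while among the triangles the melanocyte, thymocyte and pan T cell lists lie below them. The cell cycle, neutrophil granule and antibody lists shift by library, and of the lists drawn the adipocyte and red cell lists move most under the covariate.

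Lists of other tissues were also compared between the libraries. Adipocyte genes had a median of 0.29 / 1.32 / 0.28 (range 0.022 without NT NDE replicate 3 to 0.63 without NT NDE replicate 2). Their summed level was 211, 195 and 246 CPM in NT NDE, against 212, 209 and 196 CPM in NT NC. Red cell genes had a median of 0.77 that was -0.46 without NT NDE replicate 3. Skeletal muscle genes summed to 143, 155 and 145 CPM in NT NDE, against 126, 127 and 125 CPM in NT NC. The thymocyte list was lower in 6 of 7 genes (median -0.25 / -0.28 / -0.34), at a mean log2(CPM + 0.5) of 3.61, 3.84 and 3.69 in NT NDE replicates 1 to 3, against 4.23, 4.02 and 4.01 in NT NC replicates 1 to 3. In it Themis, a T cell receptor signalling gene, had 64.8, 65.4 and 60.4 CPM in NT NDE, against 80.2, 74.9 and 76.2 CPM in NT NC (log2 FC -0.28 / -0.28 / -0.34, SE 0.066). Rag1, the recombinase gene, had 0.312, 2.04 and 1.05 CPM in NT NDE, against 7.09, 1.75 and 2.22 CPM in NT NC, highest in NT NC replicate 1. The part of these tissues in the results above was not tested beyond the values given.

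The same inhibition in tumour-bearing mice shares no library with this comparison, and the interaction, (NT NDE - NT NC) - (T NDE - T NC), tests where the nerve effect differs. No gene passed it (0% of 17301, smallest adjusted p 0.321), and 1230 were at an unadjusted p under 0.05 (7.11%), or 807 with Bpifa2 (4.66%). The salivary libraries lie in opposite arms, NC without and NDE with a tumour, so that list medians with Bpifa2 are given beside the others. For the IFIT, MX and ISG15 list 0 of 32 members were at an unadjusted interaction p under 0.05, and the medians were -0.56 without and -0.53 with a tumour, or -0.50 and -0.55 with Bpifa2. The GTPases had 1 of 18 at that level (0 with Bpifa2), with medians of -0.40 without and -0.39 with a tumour, or -0.35 and -0.39 with Bpifa2. A p above the threshold does not show that the effects were equal.

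In some other lists more members were at that level, where 7.11% of all genes were, or 4.66% with Bpifa2. For part of these lists the number fell with Bpifa2. Cytosolic ribosomal protein genes had 8 of 33 at that level, and 0 with Bpifa2. Respiratory chain genes encoded in mitochondrial DNA had 6 of 12, and 1 with Bpifa2. Over all genes the nerve effects without and with a tumour had a Pearson r of -0.559, or -0.118 with Bpifa2. Neutrophil granule genes had medians of 0.60 without and -0.93 with a tumour, or 0.38 and -0.78 with Bpifa2, and 15 of 22 were at an unadjusted interaction p under 0.05 (11 with Bpifa2). Lcn2, for example, had 15.4 ± 3.03 CPM among T NDE libraries and 30.3 ± 8.67 CPM among T NC libraries (SD, n = 3 each), a log2 fold change of -0.97 beside 0.90 without a tumour (interaction adjusted p = 0.462 in edgeR). The IFITM family had 4 of 5 at that level in the 12-library fit and 4 with Bpifa2, with medians of 0.33 without and -0.30 with a tumour, or 0.34 and -0.25 with Bpifa2. Follicular dendritic cell genes had 9 of 22 (4 with Bpifa2), with medians of 0.22 without and -0.0055 with a tumour, or 0.21 and -0.045 with Bpifa2. Cxcl13 averaged 216 ± 41.6 CPM among T NDE libraries and 229.9 ± 5.28 CPM among T NC libraries (interaction adjusted p = 0.501 in edgeR). Socs3 averaged 100.2 ± 10.6 CPM among T NDE libraries and 119 ± 4.15 CPM among T NC libraries. Its interaction had the smallest adjusted p of any gene (log2 difference 1.02, adjusted p = 0.321 in edgeR). The interleukin-17 and gamma delta list had medians of 0.10 without and 0.96 with a tumour, or 0.13 and 0.89 with Bpifa2, with 9 of 16 at that level and 7 with Bpifa2.

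**Figure D5:**
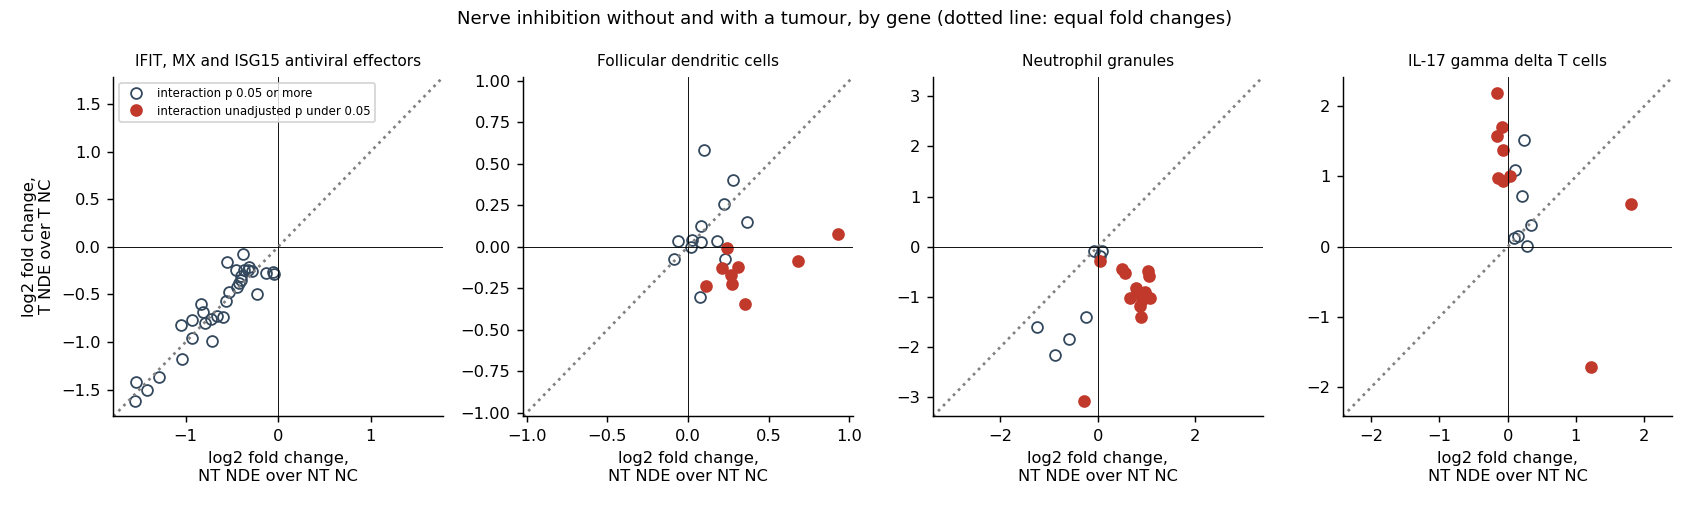
Log2 fold change of the members of 4 gene lists under nerve inhibition without a tumour (NT NDE over NT NC, horizontal) and with one (T NDE over T NC, vertical), with the dotted line where both are equal and filled points for an unadjusted interaction p under 0.05. Antiviral effectors lie near the dotted line with 0 filled points, most neutrophil granule genes lie at positive horizontal and negative vertical values, and interleukin-17 gamma delta T cell genes lie mostly above 0 on the vertical axis.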

How the data were processed

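The authors deposited whole-number read counts per gene for 12 libraries. Reads were aligned with HISAT2 2.0 to mm10, per the submitters' processing notes, and the counter, annotation and strand setting are not stated in the sources used here. Of 55487 gene IDs, 55141 had a symbol in the reference tables. Positions are from GENCODE M21 and promoters from RefSeq, both on GRCm38.

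Counts were tested with edgeR 4.0.16 (R 4.3.3), with TMM scaling, filterByExpr (minimum count 10, minimum total 15), 1 mean per group over the 12 libraries, the robust quasi-likelihood test and Benjamini-Hochberg adjustment at 0.05. Fold changes are log2, NT NDE over NT NC, with the SE from the test statistic. A further fit added the log2 CPM of Bpifa2 (prior count 2). DESeq2 1.42.0 and limma 3.58.1 were alternatives, as were other scalings, filters and sets of libraries. The fits were also run on simulated counts with known changes in NT NDE. No library of that simulation held an excess of salivary transcripts. It therefore cannot show how the fits handle the salivary libraries or the confounded covariate.

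The members and the gene lists were chosen with earlier results of these data known. Genes were named by rule: the 15 higher and 15 lower genes of smallest p with a mean of at least 1 CPM in either group, without antigen receptor segments and predicted genes, then up to 4 genes of smallest p and the defining gene of each list, and receptor genes of nerve signals. Some genes that the rule names are not reported here. Isg15, Ddx58, Myd88, Slfn4, S100a9, Cxcl12, Cxcr6, Vipr2 and Klk1 were named after their values were seen. Libraries are biologically independent repetitions per the labels, and p-values measure the spread between them, shared over all libraries in a fit. Without the salivary libraries NT NC is replicate 1 alone, so p-values of that fit hold no measured spread of NT NC.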

Additional observations from a re-analysis of the deposited data

How the results depend on the processing

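Between NT NDE and NT NC the 12-library edgeR test called 0 genes, as did DESeq2 size factors, upper-quartile factors, a filter of 1 CPM in 3 libraries, limma-voom and a fit without robust estimation. DESeq2 called 134, the 6 libraries without a tumour 37, the same 6 with Bpifa2 40, no filter 43 and the fit without the 3 salivary libraries 33. Leaving out 1 library gave 0 to 7. With Bpifa2 as a covariate (0 calls), DESeq2 called 65, the 6 libraries 40 and no filter 31, and leaving out 1 library gave 0 to 148. The interaction with tumour status (0 calls) gave 43 in DESeq2, 1 with no filter, 3 without the salivary libraries and 0 to 2 with 1 library left out. Samples with the same replicate number did not deviate together (r = -0.087, -0.13 and 0.054). Those with different numbers had r from -0.068 to 0.16. With so few libraries these correlations cannot show whether the numbers pair the samples. A replicate block gave 3 calls between NT NDE and NT NC, 0 with Bpifa2 and 1 for the interaction. The causes of these changes were not tested.

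Some of these alternatives leave fold changes fixed or nearly so, such as no robust estimation or leaving out a library with a tumour. Many of the genes were also chosen by small p. The counts that follow are therefore not a measure of robustness. Of 3549 fold changes of 148 named genes under these alternatives, 25 changed sign, in 10 genes. Without the 3 salivary libraries these were Cxcl9 (0.025), Jchain (0.76) and Ramp2 (-0.039). With Bpifa2 they were Bpifa2 itself (0.016, and 0.00937 in the 6 libraries), Cxcl9 (0.020) and Jchain (0.36, and 0.29 in the 6 libraries). As its own covariate, Bpifa2 could not keep its fold change there. Jchain was also at 0.10 in limma-voom and at 0.059 with the replicate block. With 1 library left out, the range was -0.14 to 0.00815 for Aim2, -0.18 to 0.18 for Cxcl9, -0.23 to 0.50 for Fos, -0.16 to 0.027 for Foxp3, -0.46 to 1.38 for Hbb-bs, -0.40 to 0.71 for Jchain, -0.17 to 0.097 for Ramp1 and -0.23 to 0.076 for Siglech. Of 1416 list medians, 1329 stayed within 1 SD of their value across libraries, and 29 of the 87 others came from the fit without the salivary libraries. Genes at a few CPM, such as Il17f, Il22, C5ar1 and Rag1, rest on few reads in each library.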

Other observations

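A few genes outside the named sets were called when edgeR was run on the 6 tumour-free libraries alone, and the following were picked for description after their values were seen. S1pr3, a sphingosine-1-phosphate receptor, had 72, 79 and 80.2 CPM in NT NDE, against 55.4, 51.8 and 54.6 CPM in NT NC (adjusted p = 0.00866 in edgeR on the 6 libraries and 0.264 on the 12). Jak3, the kinase of the common gamma chain cytokine receptors, had 277, 250.2 and 252 CPM in NT NDE, against 184, 199 and 202 CPM in NT NC (adjusted p = 0.0335 in edgeR on the 6 libraries and 0.175 on the 12). These 2 genes were higher in NT NDE, and their groups did not overlap. On the lower side, Tgfa, a ligand of the epidermal growth factor receptor, had 20.6, 16.7 and 19.7 CPM in NT NDE, against 28, 26.8 and 29.9 CPM in NT NC (adjusted p = 0.0433 in edgeR on the 6 libraries and 0.27 on the 12). Ms4a6b, a relative of Ms4a4b, had 303, 335 and 299 CPM in NT NDE, against 414, 422 and 378 CPM in NT NC (adjusted p = 0.042 in edgeR on the 6 libraries and 0.144 on the 12). Both were lower in every NT NDE library than in any NT NC library. Without the 3 salivary libraries, the log2 fold changes were 0.48 for S1pr3, 0.50 for Jak3, -0.56 for Tgfa and -0.40 for Ms4a6b, and none of the 4 was called.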
